A study of Oryza sativa with 7 samples.

Results

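The genes described here are those with fewer reads in rice crown root primordia at initiation than both in primordia at outgrowth and in the ground tissue around them. They were chosen from values of CPM, which are the reads of a gene scaled to a library total of 1000000. A gene was kept when its lowest CPM over the outgrowth and control libraries was at least 5 and at least 2 times its highest CPM over the initiation libraries. The rule kept 185 of 24728 genes with a LOC_Os identifier, which is 1.56% of the 11845 genes that reached 5 CPM in every outgrowth and control library. With outgrowth as the low group the same thresholds kept 194 genes, and with control as the low group they kept 728.

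All tissue came from the stem base of wild-type seedlings of the indica rice cultivar IR64, 6 days old, germinated on MS medium in long days, and the labels name no treatment. Cells were cut from sections under a microscope with a laser (laser capture microdissection), which gave primordia at outgrowth (2 libraries), primordia at initiation (3 libraries) and control ground tissue (2 libraries). The labels do not say how many plants a library holds or whether libraries share plants. Library totals lay between 8351775 and 25448025 counts. The counts of initiation replicates 1 and 3 differed by less than independent counting would give. Their mean squared difference was 0.402 times that of binomial counting, against 28.8 times for initiation replicates 1 and 2. Replicates 1 and 3 may thus not be independent, and the reason was not tested. They were counted as 1 sample, so means at initiation have n = 2, while the values of all 3 libraries are given. CPM is not scaled for gene length, so levels are not compared between genes. In such bulk samples fewer cells of a type and less RNA per cell cannot be told apart.

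Crown roots arise from cells inside the stem base that re-enter division, form a dome and later emerge through the stem. At initiation the founder cells divide and are being set apart from their neighbours. At outgrowth the primordium already holds differentiating tissues, and its older cells begin to form vacuoles, vascular strands and thickened walls. Auxin, restrained by Aux/IAA repressors, is a main signal for the start of this programme in rice.

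Neither the files nor the reference table pair these identifiers with gene names. Among the members 10 were recognised from general knowledge of published rice loci, and their names and roles below, like those of the loci used to check the tissue, are background from that source. They are the tonoplast aquaporins TIP1;1 and TIP2;2, the auxin repressor IAA13, the transcription factors EIL2, MYB4 and GLK1, and 4 proteins of metabolism or RNA binding, which are PAL1, CHLH, DHAR1 and a glycine-rich RNA-binding protein. The other members are given by identifier only.

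The check of tissue used 16 loci for light-harvesting proteins and the small subunit of RuBisCO, marks of green tissue, of which 14 were listed in the files. Their summed level was 11.4 and 8.73 CPM at outgrowth, 14.5, 14.8 and 13.8 CPM at initiation, and 737 and 1897 CPM in control. Of the 16, there were 4 and 5 with no read in the outgrowth libraries, 4, 8 and 4 in the initiation libraries, and 3 and 2 with none in the control libraries. LOC_Os03g51690, known as OSH1 and a mark of the shoot meristem and stem, had 15.02 and 13.1 CPM at outgrowth, 72.9, 67.9 and 71.8 CPM at initiation, and 415 and 429 CPM in control. LOC_Os01g63770, known as the auxin importer AUX1 and also rich in control, had 10.7 and 11.9 CPM at outgrowth, 7.27, 8.26 and 7.89 CPM at initiation, and 112 and 139.7 CPM in control. The part of ground tissue in the levels at outgrowth was not tested. LOC_Os01g63510, known as QHB and a mark of the root quiescent centre, had 20.6 and 20.2 CPM at outgrowth, 164, 236 and 160 CPM at initiation, and 1.32 and 14.97 CPM in control. Other WOX and crown root loci on the list did not all go with QHB. CRL5 had 0 and 0 CPM at outgrowth, 0.876, 6.99 and 0.808 CPM at initiation, and 150 and 156 CPM in control. WOX11 and WOX4 were also highest in control, at 12.0 and 24.2 CPM and at 82.3 and 108 CPM. CRL1 was highest at initiation, at 6.40, 3.40 and 5.42 CPM, as was ERF3, at 179, 148 and 178 CPM. The header line was separated by a tab in the outgrowth libraries and by a space in those of initiation and control. The columns below the header were read alike in all libraries. Any difference in handling that went with the header cannot be told apart from the stage.

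Across the members the median level was 16.7 and 15.3 CPM at outgrowth, 4.21, 2.53 and 4.32 CPM at initiation, and 27.9 and 28.8 CPM in control. The members took 1.36% and 1.11% of all counts at outgrowth, 0.407%, 0.277% and 0.408% at initiation, and 1.64% and 1.97% in control. These values describe the choice of genes and were not tested. Over all 11845 genes at 5 CPM or more in outgrowth and control, the medians lay between 35.2 and 41.1 CPM in the 7 libraries. The depth of the dip varied widely among members. The ratio of the lowest outgrowth or control CPM to the highest initiation CPM, with initiation set no lower than 3 counts in each library, had a median of 2.76. It was under 3 for 105 members, at least 4 for 37 and at least 8 for 15. The lowest outgrowth or control level was at least 10 CPM for 115 members and at least 100 CPM for 8.

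**Figure D1:**
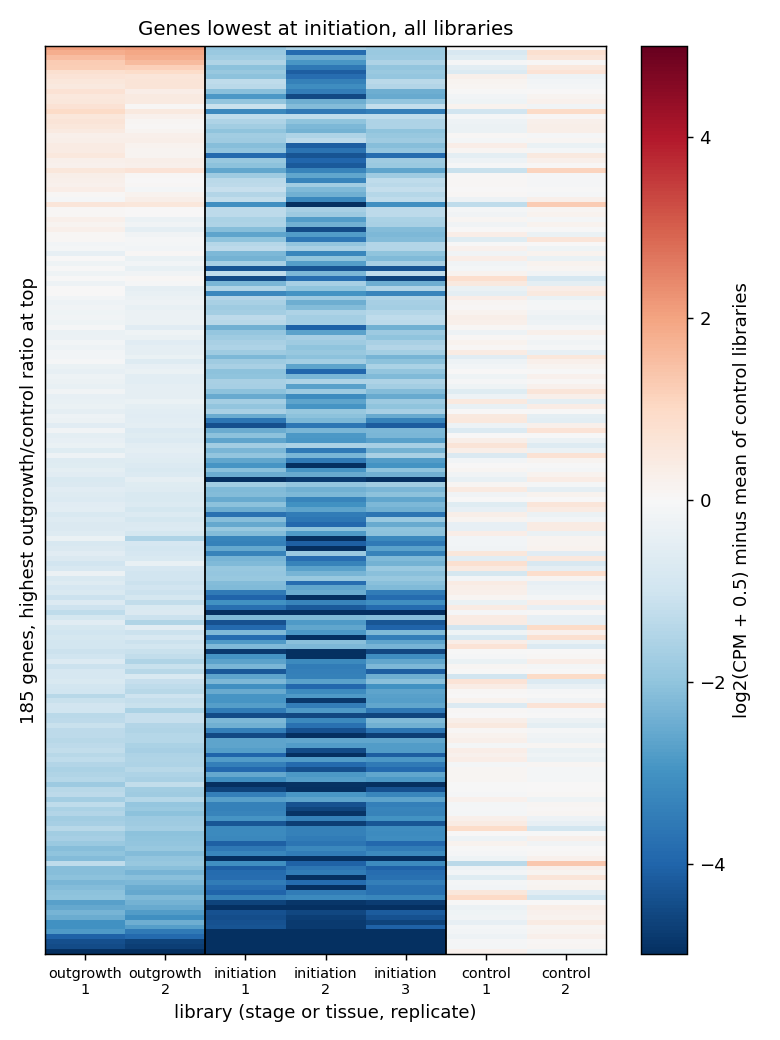
Each row is 1 of the 185 genes and each column 1 library, and colour gives log2(CPM + 0.5) minus the mean of the control libraries (blue lower, red higher, limited at 5 either way). Rows run from the highest to the lowest ratio of outgrowth to control. The initiation columns are blue throughout, by the choice of the genes, and replicate 2 is the darkest for many rows. The outgrowth columns run from red at the top to blue at the bottom.

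The dip was deepest for genes with almost no read at initiation. LOC_Os09g36880 had 9.19 and 7.06 CPM at outgrowth, no read in any of the 3 initiation libraries, and 8.74 and 9.98 CPM in control. Its outgrowth mean was 84.6 times a floor of 3 counts over the initiation group (0.0960 CPM). The floor covers counting error at initiation only, and the gene was chosen by this difference, which was not tested. LOC_Os09g36880 was the sole member without a read at initiation. LOC_Os07g42510 had 11.1 and 13.8 CPM at outgrowth, 1, 3 and 1 reads in initiation replicates 1, 2 and 3, and 14.4 and 24.9 CPM in control. LOC_Os10g16974 had 8.31 and 9.44 CPM at outgrowth, a single read over the initiation libraries, and 33.6 and 44.5 CPM in control. LOC_Os11g24374 had 7.91 and 11.7 CPM at outgrowth, 1, 0 and 2 reads at initiation, and 18.9 and 20.4 CPM in control. In these 4 genes the outgrowth and control libraries lay between 7.06 and 44.5 CPM, while at most 5 reads were found over all initiation libraries. LOC_Os08g16660, LOC_Os05g48900, LOC_Os01g43844, LOC_Os03g27230, LOC_Os03g18110 and LOC_Os02g33550 complete the 10 genes with the largest ratios, from 12.2 to 42.2. Fewer than 1 CPM in every initiation library was found for 12 members.

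At the other end, the members nearest the threshold barely met it. LOC_Os06g08470 had a ratio of 2.004 (7.43 over 3.71 CPM), and LOC_Os01g25386, LOC_Os11g42800, LOC_Os05g03440 and LOC_Os07g38030 had ratios of 2.01 to 2.03. Just outside, LOC_Os02g51710 had a ratio of 1.999 (11.7 over 5.87 CPM), and LOC_Os03g60840, LOC_Os03g19780, LOC_Os09g38340 and LOC_Os01g26174 had ratios of 1.97 to 1.996. There were 33 members with a ratio from 2 to under 2.2, and 62 genes that reached 5 CPM had a ratio from 1.8 to under 2. Genes on either side of the threshold thus differed little in ratio.

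The rule used the values of outgrowth and of control, but did not set these 2 groups against each other. Their contrast describes how near the level at outgrowth came to that of the ground tissue. Its test was edgeR's quasi-likelihood test, fitted over 18830 genes with Benjamini-Hochberg adjustment over all of them and a threshold of 0.05. The rule asks for at least 5 CPM in both groups, which keeps out genes absent from either. It also asks both groups to be at least 2 times initiation, which the genes used for comparison below did not have to meet. Differences in share between members and those genes may thus come from the choice of members, and this was not tested. By this test 40 members were lower at outgrowth and 2 were higher. That is 21.6% and 1.08% of the 185 members, all of which were tested. Over all genes tested, 13.6% were called lower and 12.8% higher, and over the genes at 5 CPM or more in every outgrowth and control library both shares were 12.9%. The median log2 fold change of outgrowth over control was -0.71 for the members and -0.02 over all genes tested. The outgrowth libraries lay below both control libraries for 112 members (60.5%, against 35.5% of all genes tested) and above both for 19 (10.3%, against 33.8%). Over the 11845 genes these shares were 37.2% and 31.4%. The remaining 143 members did not pass the test, with log2 fold changes from -2.25 to 1.69, and a missed threshold does not show equal levels. Without outgrowth replicate 1 or 2, 13 and 12 members were called lower and none higher, while calls over all genes fell to 1752 and 1523, against 4976 with all libraries. These fits hold a single outgrowth library, which is assumed to vary like the other groups. Without control replicate 2, 53 members were called lower and 5 higher, and over all genes 3098 were called lower and 4492 higher, against 2563 and 2413 with all libraries.

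The mean at outgrowth was 59.4% of the control mean in the median member, against 93.0% in the median of the 11845 genes. It was under 50% of control for 70 members (37.8%, against 14.4% of the 11845), under 25% for 23 and under 10% for 4. It lay from 50% to 200% of control for 110 members and above 200% for 5. The pattern of a dip that is regained at outgrowth thus covers members at very different distances from control, and for many the level at outgrowth was a partial one. The initiation mean was 12.97% of the control mean in the median member, a value that the rule limits from above.

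**Figure D2:**
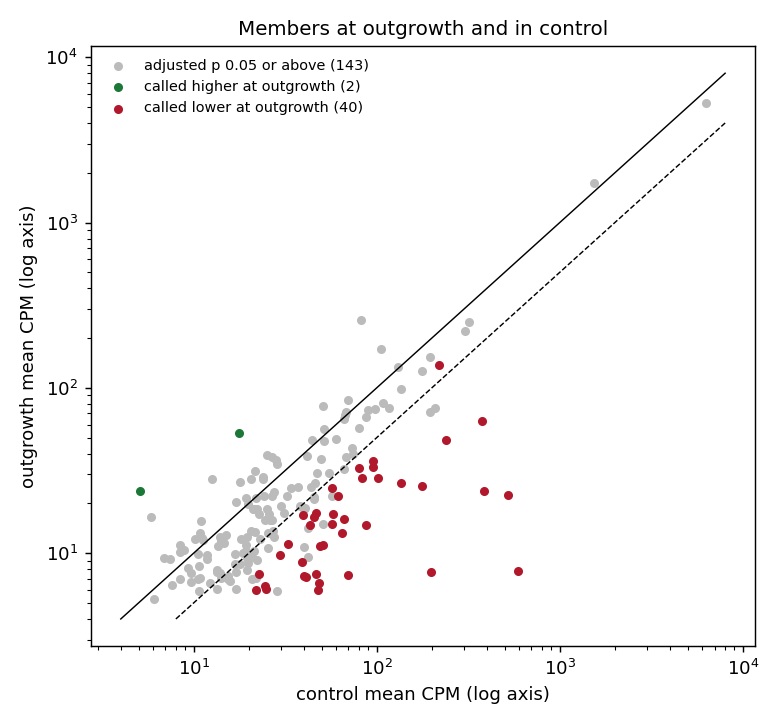
Each point is 1 of the 185 genes, with its mean CPM at outgrowth (vertical) against its mean CPM in control (horizontal), both on log axes. The solid line marks equal levels and the dashed line 50% of control. Red points (40) were called lower at outgrowth, green points (2) higher, and grey points (143) did not pass the test.

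Water channels of the vacuole membrane were among the members furthest below control at outgrowth. LOC_Os03g05290, known as TIP1;1, had 22.7 and 25.1 CPM at outgrowth, 9.64, 1.20 and 9.65 CPM at initiation, and 317 and 458 CPM in control. All outgrowth libraries lay above all initiation libraries, as the rule requires of every member, and far below the control libraries. Its log2 fold change of outgrowth over control was -3.98 (standard error, SE, 0.69, edgeR adjusted p = 0.00550). LOC_Os06g22960, known as TIP2;2, had 62.3 and 64.0 CPM at outgrowth, 7.80, 2.198 and 7.13 CPM at initiation, and 299 and 451 CPM in control. Its log2 fold change of outgrowth over control was -2.53 (SE 0.44, edgeR adjusted p = 0.00565). TIP2;2 at outgrowth was 16.8% of control, and TIP1;1 was 6.17%. The call for TIP1;1 was lost without outgrowth replicate 1 (edgeR adjusted p = 0.0503), and that for TIP2;2 without outgrowth replicate 1 or 2. Its highest edgeR adjusted p over these was 0.0512. The range of adjusted p over all alternatives was 2.28e-08 to 0.0503 for TIP1;1 and 6.45e-08 to 0.0512 for TIP2;2.

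Among the transcription factors, LOC_Os07g48630, known as EIL2 and related to the ethylene regulator EIN3 of Arabidopsis, had 9.35 and 5.47 CPM at outgrowth, 1.23, 1.53 and 1.14 CPM at initiation, and 63.7 and 75.6 CPM in control. It was lower at outgrowth than in control, with a log2 fold change of -3.19 (SE 0.37, edgeR adjusted p = 0.00113). LOC_Os04g43680, known as MYB4, an R2R3-MYB factor studied for cold tolerance, had 21.6 and 22.5 CPM at outgrowth, 1.05, 2.13 and 1.33 CPM at initiation, and 26.8 and 38.0 CPM in control. Its ratio of the lowest outgrowth or control CPM to the highest initiation CPM was 10.2. The groups at outgrowth and in control did not overlap, but the difference did not pass the test (log2 fold change -0.51, SE 0.38, edgeR adjusted p = 0.362). LOC_Os06g24070, known as GLK1, a regulator of chloroplast development, had 8.79 and 5.29 CPM at outgrowth, 1.66, 0.599 and 1.57 CPM at initiation, and 20.1 and 23.7 CPM in control. Its outgrowth level did not pass the test against control (log2 fold change -1.59, SE 0.57, edgeR adjusted p = 0.0762), but did in 3 of 16 alternatives, with adjusted p from 0.0356 to 0.428.

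LOC_Os03g53150, known as IAA13, encodes an Aux/IAA protein, which holds back auxin responses until auxin leads to its breakdown. It had 16.9 and 17.7 CPM at outgrowth, 5.17, 0.999 and 5.37 CPM at initiation, and 23.1 and 22.4 CPM in control. The outgrowth libraries lay below both control libraries, and the difference did not pass the test (log2 fold change -0.35, SE 0.64, edgeR adjusted p = 0.720). This SE rests on a spread shared by all 3 groups, so the unequal initiation libraries of IAA13 enter it too. LOC_Os06g39590, known as IAA23 of the same family and no member, had 20.8 and 25.5 CPM at outgrowth, 58.1, 68.5 and 58.4 CPM at initiation, and 23.5 and 11.4 CPM in control. IAA23 was thus highest at initiation, while the low level of IAA13 there was required by the rule. These 2 loci do not describe the family. Of the 36 loci for photosynthesis, homeobox, crown root, gibberellin, auxin and cytokinin genes that were listed for this work, 33 were found in the files and IAA13 was the sole member.

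The members with known metabolic roles were at 36.2% to 62.8% of control at outgrowth. LOC_Os02g41630, known as PAL1, encodes phenylalanine ammonia-lyase, the entry enzyme of phenylpropanoid and lignin synthesis. It had 81.7 and 60.3 CPM at outgrowth, 27.6, 8.19 and 27.1 CPM at initiation, and 243 and 149.8 CPM in control. The difference between outgrowth and control did not pass the test (log2 fold change -1.42, SE 0.49, edgeR adjusted p = 0.0688), but it did in 5 of 16 alternatives, with adjusted p from 0.00238 to 0.317. Its neighbour LOC_Os02g41650, a related copy, had 19.9 and 19.1 CPM at outgrowth, 8.94, 3.80 and 8.36 CPM at initiation, and 10.5 and 12.2 CPM in control. Unlike PAL1, this copy was higher at outgrowth than in control. Whether reads were divided between the copies was not tested. LOC_Os03g20700, known as CHLH, a subunit of the magnesium chelatase of chlorophyll synthesis, had 12.3 and 6.70 CPM at outgrowth, 2.72, 1.798 and 2.90 CPM at initiation, and 15.8 and 25.7 CPM in control. CHLH did not pass the test (log2 fold change -1.09, SE 0.52, edgeR adjusted p = 0.165). LOC_Os05g02530, known as DHAR1, which recycles the antioxidant ascorbate, had 133 and 143 CPM at outgrowth, 65.2, 56.9 and 65.2 CPM at initiation, and 235 and 205 CPM in control. DHAR1 was lower at outgrowth than in control (log2 fold change -0.63, SE 0.18, edgeR adjusted p = 0.0348), a call kept in 10 of 16 alternatives, with adjusted p from 0.00514 to 0.269.

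**Figure D3:**
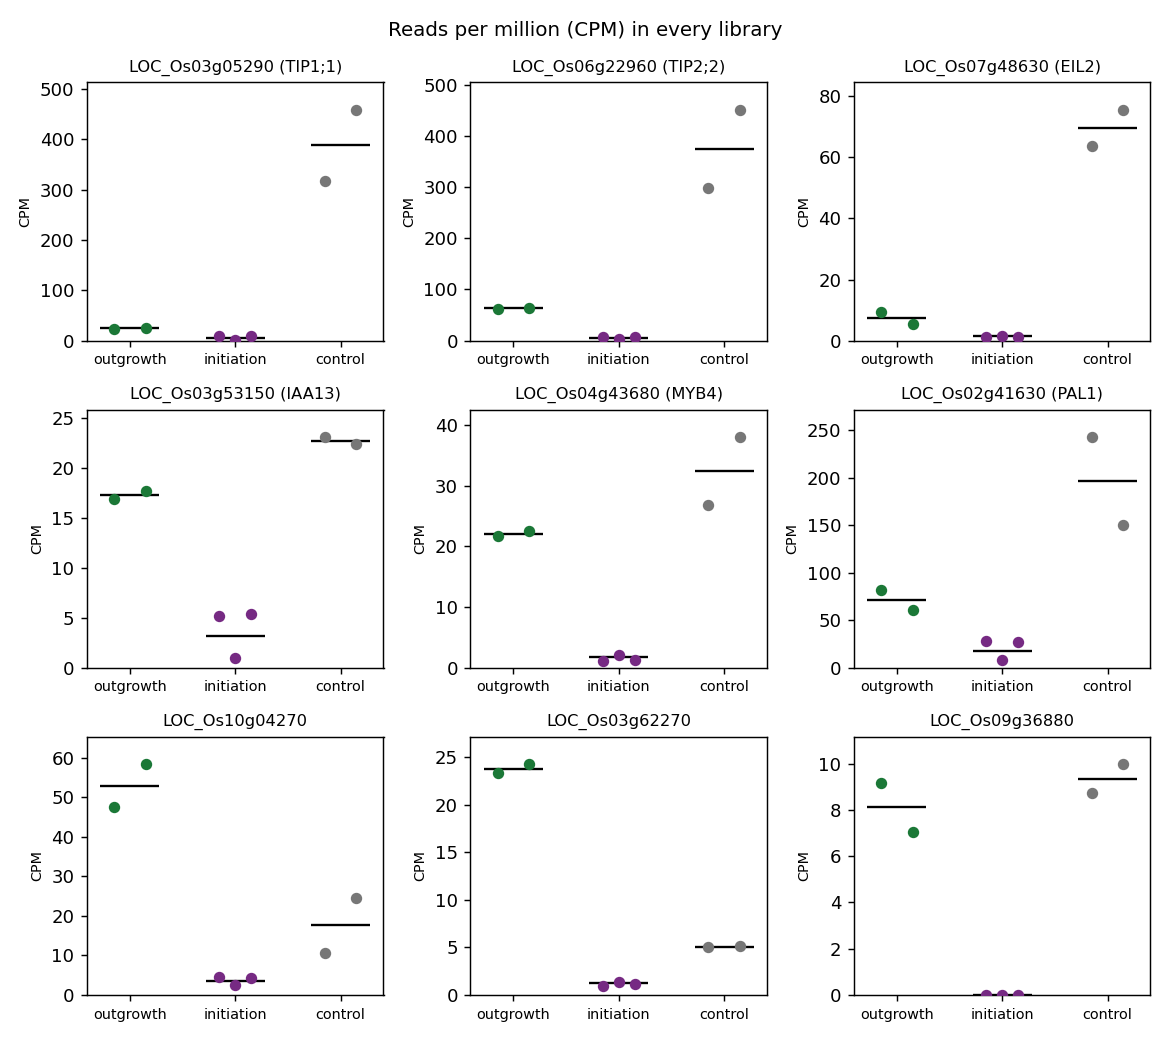
Points are the CPM of single libraries of 9 genes, at outgrowth (green), at initiation (purple) and in control (grey), each panel with its own axis from 0. Black lines are group means, with initiation replicates 1 and 3 counted as 1 sample. Outgrowth lies far below control for TIP1;1, TIP2;2 and EIL2, near it for IAA13 and LOC_Os09g36880, and above it for LOC_Os10g04270 and LOC_Os03g62270.

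The outgrowth mean was above the control mean for 36 of 185 members, of which 2 passed the test. LOC_Os03g62270 had 23.3 and 24.3 CPM at outgrowth, 0.964, 1.33 and 1.14 CPM at initiation, and 5.03 and 5.15 CPM in control. The groups did not overlap, and the log2 fold change of outgrowth over control was 2.27 (SE 0.45, edgeR adjusted p = 0.00977). LOC_Os10g04270 had 47.5 and 58.4 CPM at outgrowth, 4.47, 2.53 and 4.28 CPM at initiation, and 10.5 and 24.6 CPM in control. Its control libraries differed widely, and the log2 fold change was 1.62 (SE 0.46, edgeR adjusted p = 0.0361). Both calls were lost without outgrowth replicate 1 or 2, with the highest adjusted p over the alternatives at 0.147 for LOC_Os03g62270 and 0.236 for LOC_Os10g04270. The call of LOC_Os10g04270 was also lost without initiation replicate 2, without control replicate 1 and with no abundance trend of the dispersion.

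The members called lower at outgrowth had log2 fold changes from -6.19 to -0.63, with a median of -1.98, and 19 of the 40 differed by more than 4-fold. LOC_Os01g22230 had 9.59 and 6.00 CPM at outgrowth, 2.89, 1.07 and 2.52 CPM at initiation, and 674 and 506 CPM in control. Its outgrowth level was 1.32% of control (log2 fold change -6.19, SE 0.41, edgeR adjusted p = 0.000140). LOC_Os09g28850 had 24.4 and 20.6 CPM at outgrowth, 7.97, 5.93 and 8.70 CPM at initiation, and 500 and 539 CPM in control. LOC_Os01g55000 had 8.31 and 7.14 CPM at outgrowth, 0.964, 0.133 and 0.950 CPM at initiation, and 182 and 212 CPM in control. In these 3 genes the outgrowth level was under 5% of that in control. LOC_Os09g28850 had a log2 fold change of -4.48 (SE 0.23, edgeR adjusted p = 8.77e-05), and LOC_Os01g55000 had -4.63 (SE 0.44, edgeR adjusted p = 0.000506).

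Of the 10 members that took the most reads, 5 were called lower at outgrowth, and those are described above. The other 5 lay nearer to control. LOC_Os12g43600, known as a glycine-rich RNA-binding protein, had 6173 and 4430 CPM at outgrowth, 2139, 1524 and 2148 CPM at initiation, and 4783 and 7741 CPM in control. The outgrowth and control libraries overlapped (log2 fold change -0.20, SE 0.28, edgeR adjusted p = 0.642). LOC_Os02g48560 had 1878 and 1593 CPM at outgrowth, 452, 250.0 and 452 CPM at initiation, and 1607 and 1464 CPM in control. These groups overlapped too (log2 fold change 0.22, SE 0.26, edgeR adjusted p = 0.571). LOC_Os01g07760, LOC_Os04g52880 and LOC_Os08g40180, with outgrowth means of 251, 222 and 154 CPM, were at 73.1% to 78.8% of control, with edgeR adjusted p from 0.303 to 0.402 in this contrast.

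The initiation libraries entered the rule, which caps the highest of them, so their spread among members is given as a description only. What set replicate 2 apart from replicates 1 and 3 among members was not tested. Replicate 2 lay below both replicate 1 and replicate 3 for 138 of 185 members (74.6%) and above both for 37. Among genes at 5 CPM or more in every outgrowth and control library, these counts were 6166 (52.1%) and 5226. Replicate 2 was under 50% of the mean of the other initiation libraries for 65 members. TIP1;1 and IAA13 are examples, at 1.20 and 0.999 CPM in replicate 2. Because the rule takes the highest initiation library, replicates 1 and 3 set the limit for most members. With initiation replicate 2 alone, a choice added after the data were seen, 674 genes met the rule, and with replicates 1 and 3 alone 278 did. Between the outgrowth libraries the median absolute difference of members on log2(CPM + 0.5) was 0.20, and between the control libraries it was 0.41. Over genes at 5 CPM or more in every outgrowth and control library, these medians were 0.15 and 0.40. Between initiation replicates 1 and 2 the median was 0.62 for members and 0.29 for those genes. Outgrowth replicate 2 was the lowest of the outgrowth and control libraries for 99 members, and control replicates differed by more than 2-fold for 32.

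**Figure D4:**
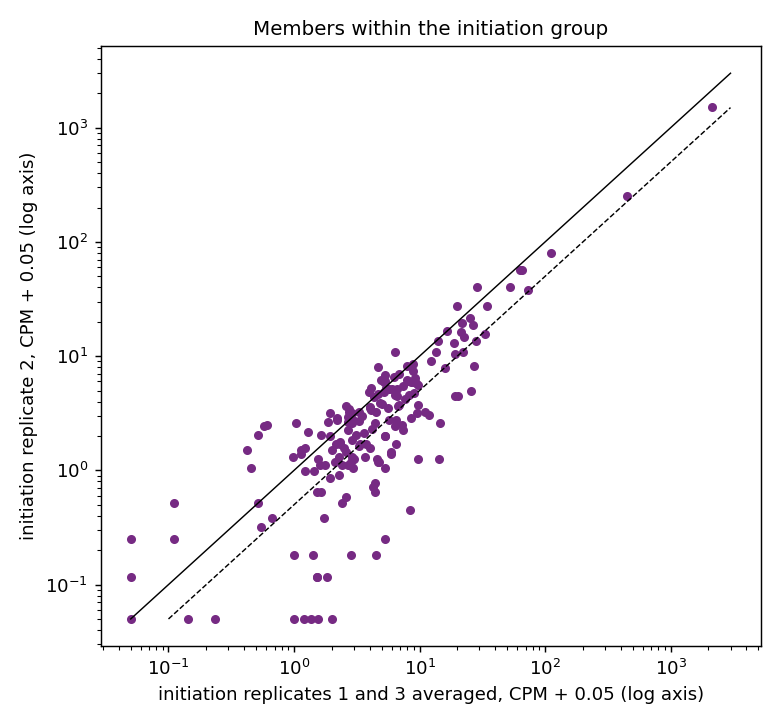
Each point is 1 of the 185 genes, with CPM + 0.05 in initiation replicate 2 (vertical) against the average of replicates 1 and 3 (horizontal), both on log axes. The solid line marks equal levels and the dashed line 50%. Most points lie below the solid line, and 65 genes are under 50% of the mean of replicates 1 and 3.

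By their locus identifiers the members lay on all 12 chromosomes. Chromosome 3 held the most, 29 members, or 15.7% of the members against 14.5% of the 11845 genes. The share of a chromosome's genes at 5 CPM or more that were members ran from 1.19% on chromosome 6 to 1.95% on chromosome 4. Identifiers no more than 50 apart, which are close neighbours in the numbering, formed 4 pairs. These were LOC_Os01g11230 with LOC_Os01g11240, LOC_Os02g44680 with LOC_Os02g44720, LOC_Os04g43680 (MYB4) with LOC_Os04g43710, and LOC_Os08g40160 with LOC_Os08g40180. LOC_Os01g11230 had 57.9 and 40.0 CPM at outgrowth, 10.95, 3.20 and 10.9 CPM at initiation, and 63.0 and 56.6 CPM in control. LOC_Os01g11240 had 24.6 and 24.96 CPM at outgrowth, 9.46, 4.66 and 8.65 CPM at initiation, and 45.0 and 22.7 CPM in control. Where such neighbours are related copies, reads may have been divided between them.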

How the data were processed

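For each library the authors deposited a table of gene identifiers with values under the heading FPKM. The deposited values were treated as counts, since they are whole numbers of at least 1 whose totals differ between libraries. The submitters' processing notes name STAR as the aligner. The counting tool, genome build, annotation and use of strand are not given in those sources, so overlapping, antisense or near-identical genes are uncertain. Unlisted genes were set to 0. Of 24775 identifiers, 0 matched the reference table.

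Genes that reached 1 CPM in 2 or more libraries were tested with edgeR 4.0.16 in R 4.3.3 (glmQLFit, glmQLFTest, TMM scaling, abundance trend). All 3 groups entered 1 fit of 6 libraries with 3 residual degrees of freedom, initiation replicates 1 and 3 being averaged. The spread within initiation thus enters the SE and p-value of outgrowth against control. Initiation replicate 2 lay under 50% of the mean of replicates 1 and 3 for 65 members, which may widen their SE. p-values are two-sided and cover only the spread among these libraries, some of which may be technical. Contrasts with initiation were not tested, as the rule used them. On simulated counts for outgrowth with control, the test recovered 8.96%, 56.7% and 81.8% of genes changed 2-fold, 4-fold and 8-fold, among 18345 genes. Only 200 genes were changed there, while 4976 were called in the data. The adjustment is stricter where fewer genes change, so these rates do not carry over to the members. Members, lists and tests were chosen with earlier results of these data known. Members named in the text are the 10 with the largest ratio, the 10 with the most reads at outgrowth and in control, up to 5 called in each direction, the 5 nearest the threshold on each side, those recognised from general knowledge, which were picked from the list of members, and neighbouring identifiers. Alternatives (DESeq2 1.42.0, limma 3.58.1, other filters and scaling, a replicate block, libraries left out) are given in the closing section.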

Additional observations from a re-analysis of the deposited data

How the results depend on the processing

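With 2 samples a group the calls at outgrowth against control rest on few libraries. Leaving out each library in turn gave 12 to 53 members called lower, 0 to 5 called higher, and 197 to 278 genes meeting the rule. Leaving out a library can only relax the rule, so these counts say nothing of its stability. The count of genes meeting the rule depended on its thresholds: 373 with a lowest level of 1 CPM, 115 with 10 CPM, 441 with a fold of 1.5, 80 with a fold of 3, and 674 with initiation replicates 1 and 3 both left out (added after the data were seen). On TMM-scaled totals it was 166. Members called lower numbered 36 to 53 under the alternatives that kept all libraries, while 2169 to 3225 of all genes were called lower. Called higher were 1 member with no abundance trend and 3 with no low filter, against 1676 and 3011 of all genes. DESeq2 called 53 members lower and 2 higher, and over all genes 3095 lower and 3110 higher, against 2563 and 2413 by edgeR. With a replicate block, 41 members were called lower and 2 higher, and over all genes 2230 lower and 2171 higher. Same-numbered libraries did not deviate together (correlations of -0.0299 to 0.0172 over 12268 genes), so the numbers were not taken to pair libraries. Over the 34 members named by rule and 16 alternatives, 497 of 544 fold changes kept direction and side of the threshold, 20 lost a call and 18 gained 1. Another 9 changed sign, none of them called. Over the fits that left out 1 library, the range was -0.35 to 0.017 for LOC_Os09g36880, -0.16 to 0.98 for LOC_Os08g16660, -0.76 to 0.94 for LOC_Os03g18110, -0.53 to 0.24 for LOC_Os12g43600, -0.76 to 0.049 for LOC_Os04g52880 and -1.17 to 0.45 for LOC_Os07g38030. LOC_Os03g18110 was also at 0.055 and 0.077 with limma on log2(CPM + 1) and log2(CPM + 0.1). The cause was not tested.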
